A study of Mus musculus with 12 samples.

Results

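The Kruppel-like factors are a family of transcription factors, and 10 of their genes (Klf2, Klf3, Klf4, Klf6, Klf7, Klf10, Klf11, Klf12, Klf13 and Klf15) were followed here through the formation of the lung alveoli in the mouse. They were taken by symbol from a gene table of 28004 genes, and all 10 passed the filter on low counts that left 16827 genes for testing. Each library was made from mouse lung cells that carry 2 reporters, Acta2-dsRed and Pdgfra-GFP, and were positive for both when sorted from dissociated whole lungs. Sorting was done before birth (E17.5, embryonic) and at postnatal days 3, 7 and 10, called P3, P7 and P10 below, with 3 libraries a stage. Both reporters are carried at every stage, so the groups differ by age alone as far as the labels say, and the series as a whole concerns Hippo pathway activity in the lung mesenchyme. Nothing in the labels says whether libraries of 1 stage are separate animals, litters or pools, so the p-values below measure only the spread between these libraries. A reporter marks any cell in which its promoter is active, so the gate can also hold other cells that express both genes.

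Kruppel-like factors bind GC-rich and CACCC-type DNA through a run of zinc fingers at the C-terminal end that is very alike across the family, while the N-terminal part differs and sets whether a member activates or represses. Klf2, Klf4, Klf6 and Klf7 are mostly described as activators, Klf3 and Klf12 as repressors that recruit the corepressor CtBP, and Klf10, Klf11 and Klf13 as factors that bind the Sin3A corepressor, with Klf10 and Klf11 first found as genes induced early by TGF-beta. Klf15 is known as a direct target of the glucocorticoid receptor that controls amino acid and lipid metabolism. In the lung, Klf2 is best known for its role in the vessel wall and in the survival of the late fetus, and Klf4 for holding back the contractile programme of smooth muscle and other mesenchymal cells.

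Promoter windows from the RefSeq table for GRCm38.p6, running from 250 bases before to 50 bases after each start, were found for 9 of the 10 genes, all except Klf10. The upstream parts are shown for Klf2, which carries a motif for MEF2 (the factor through which the kinase ERK5 drives Klf2 and Klf4), and for Klf4, Klf13 and Klf15, whose levels fell and came back or fell most strongly. They lie on GRCm38.p6 at chr8:72318812-72319032 (Klf2, plus strand), chr4:55532476-55532725 (Klf4, minus strand), chr7:63938916-63939165 (Klf13, minus strand) and chr6:90462326-90462575 (Klf15, plus strand). The Klf2 stretch was shortened to 221 bases, ending 30 bases before the RefSeq start, so as to stop ahead of the earlier start in the GENCODE annotation, while the other 3 run to the base before the start. None of the 4 stretches as shown overlaps an annotated exon, and each is written 5′ to 3′ on the strand of its gene. Capitals mark the GC box GGGCGG, the E-box CACGTG and the MEF2-type motif CTANNNNTAG, each on either strand, and the letters were chosen with the sequences in view.
Klf2: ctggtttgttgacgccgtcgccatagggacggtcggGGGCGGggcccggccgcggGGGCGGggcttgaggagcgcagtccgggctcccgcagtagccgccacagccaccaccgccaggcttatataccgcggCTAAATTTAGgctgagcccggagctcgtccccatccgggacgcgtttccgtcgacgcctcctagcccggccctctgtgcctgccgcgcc
Klf4: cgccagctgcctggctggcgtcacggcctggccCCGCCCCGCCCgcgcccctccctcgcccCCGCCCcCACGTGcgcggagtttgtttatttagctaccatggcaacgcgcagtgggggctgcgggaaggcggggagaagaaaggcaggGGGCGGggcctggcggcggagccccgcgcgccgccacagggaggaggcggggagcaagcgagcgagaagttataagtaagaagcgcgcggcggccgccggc
Klf13: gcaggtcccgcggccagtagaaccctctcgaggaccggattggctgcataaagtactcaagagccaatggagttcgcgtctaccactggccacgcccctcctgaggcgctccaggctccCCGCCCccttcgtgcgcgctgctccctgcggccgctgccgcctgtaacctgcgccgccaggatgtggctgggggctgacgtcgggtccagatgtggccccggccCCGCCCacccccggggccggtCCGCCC
Klf15: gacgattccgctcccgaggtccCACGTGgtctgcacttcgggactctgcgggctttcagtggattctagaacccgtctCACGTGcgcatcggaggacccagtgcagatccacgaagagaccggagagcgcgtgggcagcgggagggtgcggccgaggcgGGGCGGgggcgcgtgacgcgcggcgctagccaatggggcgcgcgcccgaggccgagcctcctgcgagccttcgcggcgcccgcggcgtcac
The GC share was 71.5% in the Klf2 stretch, 74.0% for Klf4, 71.6% for Klf13 and 72.0% for Klf15. Motifs were searched only in the 250 bases before the start, for the 9 genes and for all promoters alike. The promoters were taken whatever their GC share, so the shares below are not matched for base composition. A GC box, the kind of site that the Kruppel-like and Sp proteins themselves recognise, was present in 8 of the 9 windows, against 32.7% of the 32851 promoters in the table. An E-box lay in 4 of the 9 windows against 6.02% of all promoters, once in Klf4, Klf6 and Klf11 and in 2 places in Klf15, 228 and 172 bases before the start. A MEF2-type motif lay in 1 of the 9 windows, that of Klf2 at 118 bases before the start, against 3.20% of all promoters. The shorter CACCC box was found in 6 of the 9 against 52.0% of all promoters, and the cAMP response element TGACGTCA in 0 of the 9 against 1.55%. In Klf4 the first pair of GC boxes overlaps by its end base. A match is a stretch of letters and not a measured binding site.

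The 12 libraries held between 13328623 and 18740591 estimated counts and between 20234 and 21235 genes above 0, and the 7SL and 7SK RNAs took between 20.0% and 46.3% of a library. Acta2 and Pdgfra, the genes behind the reporters, were present in every library, with stage means of 486.5 to 1025 CPM and 179 to 346 CPM. One P10 library stood apart from the other 2 for these genes: P10 replicate 1 was lowest of its stage for Klf2, Klf4, Klf11, Klf12, Klf13 and Klf15 and highest for Klf3, Klf6, Klf7 and Klf10. It was lowest of its stage for endothelial and epithelial marker sums and highest for pericyte and vascular smooth muscle markers. The summed level of 10 endothelial markers, none of them at 0 in any library, was 19.7 CPM in P10 replicate 1 but 93.0 and 90.2 CPM in P10 replicates 2 and 3. At the other stages this sum ran from 25.2 to 34.5 CPM (E17.5), 27.8 to 48.0 CPM (P3) and 27.7 to 48.7 CPM (P7). Airway epithelial markers summed to 71.1, 207 and 253 CPM in P10 replicates 1, 2 and 3, alveolar epithelial markers to 55.4, 196 and 146 CPM, and pericyte and vascular smooth muscle markers to 576, 361 and 406 CPM. These are bulk libraries, in which fewer cells of a type and less RNA per cell cannot be told apart. Called P10 results of the 10 genes, and of listed genes at P10 against P7, are given with and without replicate 1. The endothelial sum of P10 replicate 1 was below, and those of P10 replicates 2 and 3 above, every library of the other stages. Fits without replicate 1 thus keep the P10 libraries with the highest endothelial sums of the series. The part of endothelial cells in the P10 values of Klf4, Klf13 and Klf15 was not tested.

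Across the 4 stages, 6 of the 10 genes differed by edgeR's quasi-likelihood test with Benjamini-Hochberg adjustment over all 16827 genes, against 32.1% of all genes tested. Ordered by edgeR adjusted p, they were Klf12 (0.000251), Klf4 (0.00152), Klf13 (0.00579), Klf15 (0.00931), Klf11 (0.0116) and Klf3 (0.0356). The other 4 did not pass, with edgeR adjusted p of 0.130 for Klf7, 0.133 for Klf2, 0.154 for Klf6 and 0.600 for Klf10. Each of the first 3 of these passed when 1 library was left out: Klf7 without E17.5 replicate 2 (0.00920), Klf2 without P10 replicate 1 (0.0381) and Klf6 without P7 replicate 1 (0.0385). CPM values below are estimated counts over TMM-scaled library sizes. They are listed by replicate number, which names a library and is not stated to pair any.

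**Figure D1:**
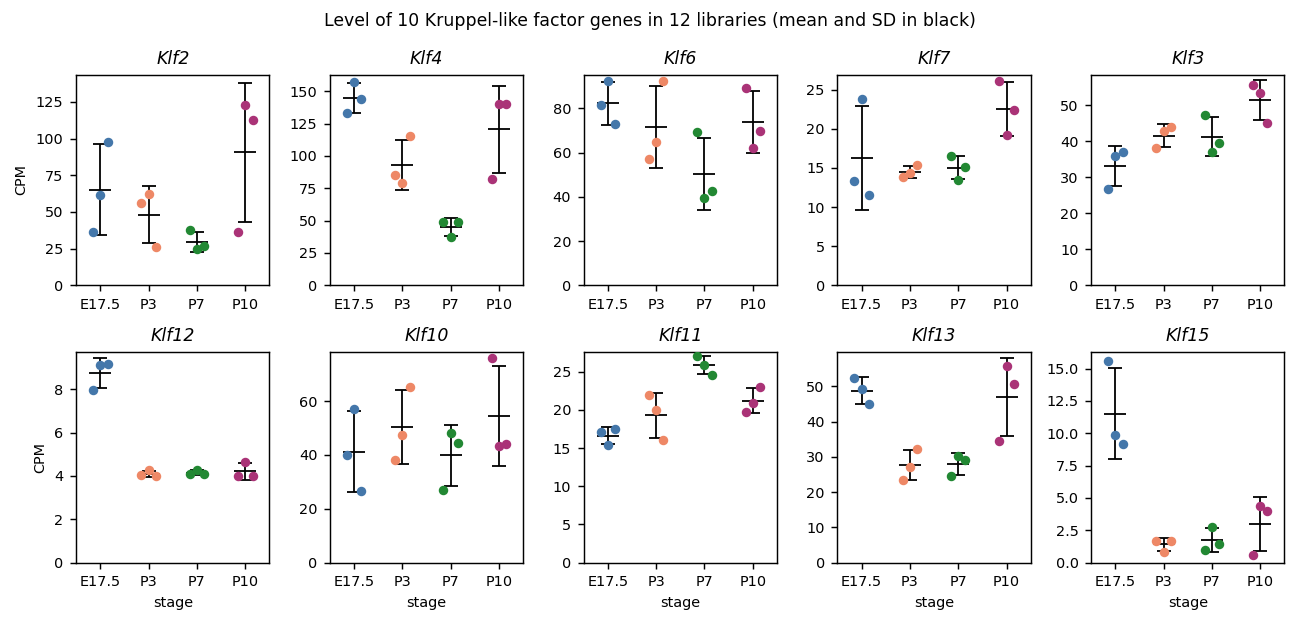
Level of the 10 genes in CPM (vertical axes, each from 0) by stage (horizontal axes, E17.5 to P10), 1 point a library and the stage mean with its SD (n = 3) in black. Klf12 and Klf15 were highest at E17.5, Klf4 and Klf13 were high at E17.5 and P10 and lower between, and Klf2 and Klf10 scattered widely within a stage.

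Klf4, an activator known as a reprogramming factor, was lowest at P7. It stood at 133, 157 and 144 CPM in the E17.5 libraries, at 85.3, 78.8 and 115 CPM at P3, at 48.8, 37.0 and 49.1 CPM at P7 and at 81.9, 139.9 and 140.2 CPM at P10. Every P7 library lay below every library of the other 3 stages, and P10 replicate 1 sat among the P3 libraries while P10 replicates 2 and 3 sat among those of E17.5. The gene lies at chr4:55527143-55532466 on the minus strand of GRCm38 and overlaps no other annotated gene. At P7 it was 3.22-fold lower than at E17.5 (log2 fold change -1.69 ± 0.22, SE, edgeR adjusted p = 0.000424), and this call held without each of the 12 libraries. At P10 Klf4 was 2.68-fold higher than at P7 (log2 fold change 1.42 ± 0.22, edgeR adjusted p = 0.0132), and without P10 replicate 1 the change was 1.61 (0.00422). That call was lost, with edgeR adjusted p between 0.0573 and 0.0706, without P7 replicate 1, 2 or 3 or P10 replicate 2 or 3, although the change stayed at 1.30 or more on the log2 scale in those 5 fits.

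The 2 steps on the way down were smaller. P3 against E17.5 gave a log2 fold change of -0.64 ± 0.22 for Klf4 (edgeR adjusted p = 0.0532), with every P3 library below every E17.5 library. It passed without P10 replicate 1 (0.0189) and without P3 replicate 3 (0.0338), and in DESeq2 (0.0147). P7 against P3 gave -1.05 ± 0.22 (edgeR adjusted p = 0.117, DESeq2 adjusted p = 0.000166), again without overlap between the libraries. In order of level the stages ran E17.5, P10, P3 and P7, and neither P10 and E17.5 nor P10 and P3 differed by the test, with edgeR adjusted p of 0.444 and 0.260.

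Klf2, the flow-responsive factor of the vessel wall, varied widely within E17.5, P3 and P10. Its levels were 36.0, 61.4 and 97.7 CPM at E17.5, 55.9, 62.4 and 26.1 CPM at P3, 37.5, 25.0 and 26.6 CPM at P7 and 36.5, 122.7 and 112.9 CPM at P10. The 3 P7 libraries, E17.5 replicate 1, P3 replicate 3 and P10 replicate 1 were low, and P10 replicates 2 and 3 held the 2 highest values of the series. P10 against P7 gave a log2 fold change of 1.61 ± 0.52 (edgeR adjusted p = 0.124), and it passed in DESeq2 (adjusted p = 0.0293). Without P10 replicate 1 it was 1.96 (edgeR adjusted p = 0.0441). The same 2 libraries had the highest endothelial marker sums, and the part of endothelial cells in the Klf2 values was not tested. Klf2 lies at chr8:72319033-72321656 on the plus strand and overlaps no other gene.

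Klf6, a factor reported to act on collagen and TGF-beta genes in fibrogenic cells, passed in none of the 6 comparisons of 2 stages. It had 81.5, 92.4 and 73.1 CPM at E17.5, 57.3, 64.7 and 92.4 CPM at P3, 69.1, 39.4 and 42.8 CPM at P7 and 89.2, 62.1 and 69.8 CPM at P10. Every P7 library was below every E17.5 library, with P7 replicate 1 closest to them, and the log2 fold change of P7 against E17.5 was -0.71 ± 0.24 (edgeR adjusted p = 0.0558). Without P7 replicate 1 it was -1.02 and passed (edgeR adjusted p = 0.0142), and it passed as well without P3 replicate 3 (0.0437), in DESeq2 (0.0155) and in limma-voom (0.0443). P10 against P7 gave 0.55 ± 0.24 (edgeR adjusted p = 0.236), with overlapping libraries. The gene lies at chr13:5861482-5870394 on the plus strand.

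Klf7, described in neurons for axon growth and in fat precursors for blocking adipogenesis, had similar means up to P7 and its highest mean at P10. Its libraries read 13.4, 23.8 and 11.6 CPM at E17.5, 13.8, 14.3 and 15.3 CPM at P3, 16.5, 13.5 and 15.1 CPM at P7 and 26.1, 19.2 and 22.4 CPM at P10. All P10 libraries were above all P3 and P7 libraries, and E17.5 replicate 2 alone reached the P10 range. Neither P10 against P7 (log2 fold change 0.59 ± 0.23, edgeR adjusted p = 0.187) nor P10 against P3 (0.64 ± 0.23, edgeR adjusted p = 0.0847) passed, and without P10 replicate 1 they were 0.44 (0.381) and 0.49 (0.230). P10 against P3 passed without E17.5 replicate 2, which enters through the shared estimate of the spread (edgeR adjusted p = 0.0147), and in DESeq2 (0.0358). Klf7 lies at chr1:64029447-64122282 on the minus strand, where Mir6899 on the same strand and Gm26649 and Gm13748 on the other overlap it. Since it is not stated whether strand was used in counting, reads of such overlapping genes could not be told apart, and the same holds for Klf3, Klf12 and Klf13 below.

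Among the repressors that bind CtBP, Klf12 gave the tightest pattern of the family. It had 7.95, 9.15 and 9.18 CPM at E17.5, then 4.02, 4.27 and 3.99 CPM at P3, 4.09, 4.28 and 4.10 CPM at P7 and 3.98, 4.66 and 4.02 CPM at P10. All 9 postnatal libraries fell between 3.98 and 4.66 CPM, and all 3 embryonic ones were above them. The counts behind this were low, 94 to 176 a library at E17.5 and 59 to 82 after birth. Klf12 was 2.14-fold lower at P3 than at E17.5 (log2 fold change -1.10 ± 0.13, edgeR adjusted p = 0.000300), 2.11-fold lower at P7 (-1.07 ± 0.13, 0.000293) and 2.08-fold lower at P10 (-1.05 ± 0.13, 0.000353). These 3 calls held without each of the 12 libraries (without P10 replicate 1, P10 against E17.5 gave -1.02 and 0.00183), and P3, P7 and P10 did not differ from each other by the test (edgeR adjusted p of 0.909 to 0.979). The gene lies at chr14:99870632-100284679 on the minus strand, with 4930517O19Rik and Gm16260 on the other strand.

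Klf3, the other CtBP-binding repressor, went the opposite way. Its levels were 26.8, 35.9 and 36.9 CPM at E17.5, 38.1, 42.7 and 44.0 CPM at P3, 47.2, 36.9 and 39.6 CPM at P7 and 55.6, 53.5 and 45.0 CPM at P10. The P10 libraries were all above those of E17.5 and of P3, and 1 P7 library exceeded the lowest of P10. At P10 Klf3 was 1.55-fold higher than at E17.5 (log2 fold change 0.63 ± 0.14, edgeR adjusted p = 0.0125), a call kept without each library. It was 0.56 (0.0428) without P10 replicate 1, and the call was lost in the fit of these 6 libraries alone (0.0538). The single steps did not pass, and P3 against E17.5 gave 0.32 ± 0.14 (edgeR adjusted p = 0.129). The test across all 4 stages was lost for Klf3 without 9 of the 12 libraries, with edgeR adjusted p between 0.0523 and 0.101 in those 9 fits. Klf3 lies at chr5:64803388-64832901 on the plus strand, overlapped by C230096K16Rik on that strand and Gm20033 on the other.

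Klf11 and Klf10, the pair first found as TGF-beta-inducible early genes and able to bind Sin3A, differed in how closely their libraries agreed. Klf11 had 17.1, 15.4 and 17.47 CPM at E17.5, 21.9, 19.9 and 16.1 CPM at P3, 27.0, 25.9 and 24.6 CPM at P7 and 19.8, 20.9 and 22.9 CPM at P10. The 3 P7 libraries were above every other library of the series, and the P10 libraries lay between those of P7 and E17.5. At P7 Klf11 was 1.55-fold higher than at E17.5 (log2 fold change 0.63 ± 0.12, edgeR adjusted p = 0.00340), and this held without each library. The neighbouring steps did not pass in edgeR: P7 against P3 gave 0.42 ± 0.12 (adjusted p = 0.186, and 0.0222 in DESeq2), P10 against P7 gave -0.28 ± 0.12 (0.207) and P10 against E17.5 gave 0.35 ± 0.12 (0.0686). The last of these passed without P3 replicate 3 (0.0307), in DESeq2 (0.0269) and with upper-quartile scaling (0.0468). Klf11 lies at chr12:24651274-24662789 on the plus strand.

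Klf10 had 40.1, 56.9 and 26.7 CPM at E17.5, 38.2, 47.3 and 65.3 CPM at P3, 26.9, 48.2 and 44.4 CPM at P7 and 75.9, 43.2 and 44.0 CPM at P10. The stages overlapped in all 6 comparisons, and the spread within a stage was as wide as the difference between stages, with means of 41.2 ± 15.1, 50.3 ± 13.8, 39.8 ± 11.4 and 54.4 ± 18.6 CPM (SD, n = 3 each). No comparison of Klf10 reached an unadjusted p of 0.05. The gene lies at chr15:38291463-38300706 on the minus strand.

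Klf13, a Sin3A-binding member known from T cells as an activator of the chemokine gene Ccl5, was low at the 2 middle stages and high at both ends. It stood at 52.3, 49.1 and 44.9 CPM at E17.5, at 23.5, 27.2 and 32.2 CPM at P3, at 24.4, 30.3 and 29.1 CPM at P7 and at 34.4, 55.8 and 50.5 CPM at P10. It was the 1 gene of the 10 in which every E17.5 and P10 library lay above every P3 and P7 library, as did 3.31% of all genes tested. P10 replicate 1 came nearest to the middle stages. Klf13 was 1.77-fold lower at P3 than at E17.5 (log2 fold change -0.82 ± 0.18, edgeR adjusted p = 0.00734) and 1.75-fold lower at P7 than at E17.5 (-0.81 ± 0.18, 0.00803), and both calls held without each library.

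The return of Klf13 was less firm. At P10 it was 1.68-fold higher than at P7 (log2 fold change 0.75 ± 0.18, edgeR adjusted p = 0.0463), or by 0.90 without P10 replicate 1 (0.0121). This call was lost in 11 of the 12 fits that left out 1 library, all but the one without P10 replicate 1, with edgeR adjusted p between 0.0516 and 0.166 and the change between 0.61 and 0.82 on the log2 scale. Against P3 it was 1.70-fold higher at P10 (0.76 ± 0.18, edgeR adjusted p = 0.0163, and 0.92 with 0.00344 without P10 replicate 1), a call that was lost without P3 replicate 1 or 2 or P10 replicate 2 or 3 (0.0582 to 0.0703). Klf13 was also the 1 member called both lower at P3 than at E17.5 and higher at P10 than at P7, as were 0.773% of all genes. It lies at chr7:63886351-63938915 on the minus strand, with Gm27252 and E030018B13Rik on the other strand.

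Klf15, the glucocorticoid-linked regulator of metabolism, showed the largest fold changes of the 10. It had 15.6, 9.83 and 9.18 CPM at E17.5, 1.70, 0.798 and 1.69 CPM at P3, 0.947, 2.76 and 1.47 CPM at P7 and 0.594, 4.40 and 4.02 CPM at P10. All 9 postnatal libraries were below all E17.5 libraries, while P10 replicate 1 was the lowest library of the series and P10 replicates 2 and 3 the highest after birth. Counts were small, 101 to 229 a library at E17.5 and 10 to 79 after birth. Klf15 was 8.26-fold lower at P3 than at E17.5 (log2 fold change -3.05 ± 0.66, edgeR adjusted p = 0.00774), a call kept without each library. It was 6.67-fold lower at P7 than at E17.5 (-2.74 ± 0.65, edgeR adjusted p = 0.0116), which was lost without P7 replicate 3 (0.0519).

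At P10 Klf15 remained under its E17.5 level by a log2 fold change of -1.94 ± 0.63, with edgeR adjusted p = 0.0559, DESeq2 adjusted p = 0.00554 and limma-voom adjusted p = 0.0205. Without P10 replicate 1 the change was -1.46 (edgeR adjusted p = 0.0615). P10 against P7 did not pass (means of 3.003 ± 2.10 CPM at P10 and 1.73 ± 0.93 CPM at P7, SD, n = 3 each, edgeR adjusted p = 0.518). Klf15 lies at chr6:90462576-90475238 on the plus strand and overlaps no other gene.

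**Figure D2:**
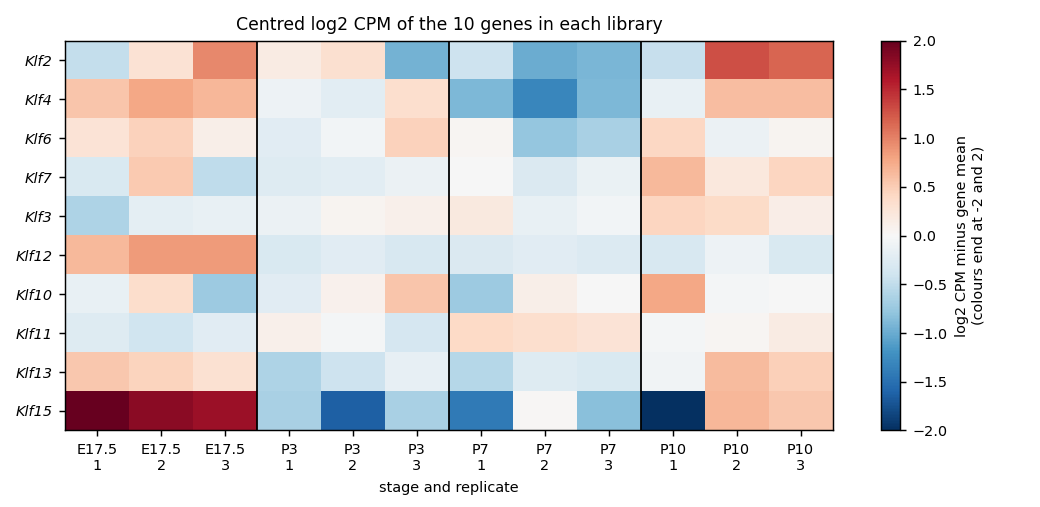
Centred log2 CPM of the 10 genes (rows) in the 12 libraries (columns, by stage and replicate), as the difference from the mean of the gene over all libraries, with colours ending at -2 and 2. Klf4, Klf13 and Klf15 shared high values at E17.5 and in P10 replicates 2 and 3, while P10 replicate 1 was low for Klf15 and Klf2.

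Taken stage by stage, P3 against E17.5 called 3 of the 10 genes, all lower at P3 (Klf12, Klf13 and Klf15), against 25.1% of all genes tested in either direction and 12% lower. The median log2 fold change of the 10 was -0.32, and that of all genes -0.05. Markers of other cells moved over the same step: 4 of 5 erythroid markers were called lower, with sums of 31.8 to 53.6 CPM at P3 and 117 to 179 CPM at E17.5, and 4 of 8 pericyte and vascular smooth muscle markers were called lower, with overlapping sums of 570.5 to 662 CPM at P3 and 503 to 867 CPM at E17.5. Of 4 airway markers 2 were called higher, with sums of 84.8 to 136 CPM at P3 and 14.7 to 25.6 CPM at E17.5. None of these markers of other cells was at 0 in any library, and their part in the changes of the 10 genes was not tested. Of 12 markers of the sorted cells, 4 were called higher and 3 lower at P3 than at E17.5. Aspn (204.5 CPM at P3 and 8.71 CPM at E17.5) and Tagln (641 and 263 CPM) were higher. Eln (533 and 4001 CPM) and Hhip (102 and 609 CPM) were lower, and the part of such shifts in the changes of the 10 genes was not tested either. At P7 against E17.5, 5 of the 10 were called, Klf4, Klf12, Klf13 and Klf15 lower and Klf11 higher, against 25.4% of all genes, with a median of -0.76 for the 10 and -0.01 for all genes. These comparisons share their E17.5 libraries.

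For P7 against P3, edgeR called 0 of the 10 genes, and 0.00594% of all genes, which is 1 gene. At an unadjusted p under 0.05 there were 2 of the 10, Klf4 and Klf11, against 14.3% of all genes. DESeq2 called the same pair, and limma-voom called 0. The absence of calls in edgeR therefore does not show that the genes were level over these days.

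For P10 against P7, 2 of the 10 genes were called, Klf4 and Klf13, both higher at P10, against 3.64% of all genes in either direction and 1.40% higher. Of the 10 estimates 9 were positive, with a median of 0.57 for the 10 and 0.01 for all genes. P10 against P3 called 1 of the 10, Klf13, against 17.3% of all genes, and P10 against E17.5 called 2, Klf3 higher and Klf12 lower, against 18.3%.

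Whether a gene moved differently after P7 than across birth was tested by setting the change of P10 over P7 against the change of P3 over E17.5, which share no library. This difference passed for 4 of the 10 genes, all positive, against 25.9% of all genes and 12.6% in the positive direction. It was 2.06 ± 0.31 on the log2 scale for Klf4 (edgeR adjusted p = 0.00105), 1.57 ± 0.25 for Klf13 (0.00154), 1.12 ± 0.19 for Klf12 (0.00190) and 3.85 ± 0.91 for Klf15 (0.0116), and these 4 calls held without each library. Without P10 replicate 1 the differences were 2.22 for Klf4 (edgeR adjusted p = 0.000242), 1.70 for Klf13 (0.000357), 1.10 for Klf12 (0.00345) and 4.28 for Klf15 (0.00128). For Klf4 and Klf13 the later change was a called rise, while for Klf12 and Klf15 it did not pass and the difference came with the called fall across birth. Klf2 gave 2.05 ± 0.73 (edgeR adjusted p = 0.0670), and 2.37 without P10 replicate 1 (0.0209) or 2.33 without E17.5 replicate 1 (0.0486), and it passed in DESeq2 (0.0264). Klf7 gave 0.75 ± 0.33 (edgeR adjusted p = 0.126), and 0.58 without P10 replicate 1 (0.275). Klf11 gave a difference of the other sign, -0.50 ± 0.17 (0.0516). It passed without P3 replicate 3 (0.0125) or E17.5 replicate 3 (0.0458), in DESeq2 (0.0152), with DESeq2's size factors in edgeR (0.0443), with a filter of 1 CPM in 3 libraries (0.0382) and without robust fitting (0.0498).

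**Figure D3:**
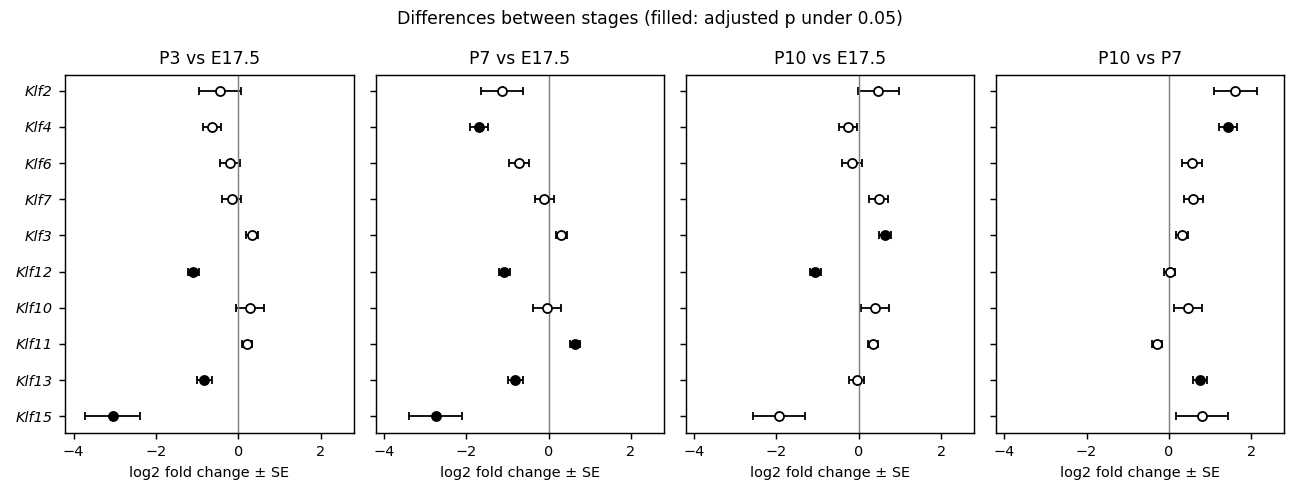
Log2 fold change with its SE (horizontal axes) of the 10 genes (rows) for 4 comparisons of 2 stages, later over earlier, with filled points for an edgeR adjusted p under 0.05. Klf12, Klf13 and Klf15 are filled to the left of 0 at P3 against E17.5, and Klf4 and Klf13 to the right of 0 at P10 against P7.

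Divided by the length of the longest annotated coding transcript, Klf4 and Klf2 had the highest values over the 4 stages at 33.3 and 31.6 CPM per kb. Klf6 and Klf10 followed at 16.5 and 15.3 CPM per kb, then Klf3 (8.02), Klf13 (5.91), Klf11 (5.08), Klf7 (2.23), Klf15 (1.78) and Klf12 (0.901). The order shifted with age. Klf4 led at E17.5 with 47.8 CPM per kb against 35.2 for Klf2, Klf2 stood at 16.1 and Klf4 at 14.9 CPM per kb at P7, and Klf2 at 49.1 and Klf4 at 39.8 CPM per kb at P10, gaps that are within the spread of the Klf2 libraries. Klf15, above Klf7, Klf11 and Klf12 at E17.5 with 4.64 CPM per kb, was at 0.563 CPM per kb at P3. How the deposited counts were scaled was not given, so this order holds only if they were not already corrected for length. Before the division, Klf6 was above Klf2 at E17.5 (82.3 and 65.1 CPM), P3 (71.5 and 48.1 CPM) and P7 (50.5 and 29.7 CPM). It was below Klf2 at P10 (73.7 and 90.7 CPM).

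For each of the 6 genes that differed across stages, the genes with the most similar profile were taken from 6758 genes of at least 10 CPM, by the root mean square difference of centred log2 CPM over the 12 libraries. Nearest to Klf4 were Fosb (0.266), Myo1d (0.281) and Fosl2 (0.344), of which Fosb and Fosl2 encode subunits of the AP-1 transcription factor. Fosb had means of 411 ± 28, 217 ± 17, 104 ± 39 and 274 ± 86 CPM from E17.5 to P10 (SD, n = 3 each), the same order of stages as Klf4. Nearest to Klf13 were Zrsr1 (0.168), Lnpep (0.169) and Clk4 (0.181), and nearest to Klf15 were Lpin1 (0.465), Fmo1 (0.476) and Penk (0.502). Lpin1, a phosphatidate phosphatase of lipid synthesis, had means of 53.7 ± 9.9, 5.06 ± 0.93, 4.98 ± 1.86 and 10.99 ± 6.47 CPM over the 4 stages.

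Closest to Klf12 were Zfhx3 (0.119), Setbp1 and Sesn3 (both 0.127), and Zfhx3, a large homeodomain transcription factor, stood at 17.3 ± 0.2 CPM at E17.5 and between 9.07 and 9.54 CPM on average after birth. Klf11 lay nearest to Gtf2a1 (0.0974), Plscr3 (0.0999) and Kank2 (0.106), and Klf3 to Dync1li2 (0.1195), Dkk3 (0.145) and Polr3d (0.146). Among the 10 genes themselves the closest pairs were Klf3 with Klf7 (0.304) and Klf3 with Klf11 (0.312). These pairs come from far fewer candidates than the nearest neighbours, so the distances of pairs and neighbours cannot be compared. These values describe likeness over libraries that share a stage and are no measure of a shared function.

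Klf9, a close relative induced by glucocorticoids and thyroid hormone, was high at E17.5 and P10 and lower between, as Klf13 was. It averaged 31.2 ± 7.5 CPM at P3 and 75.7 ± 11.5 CPM at E17.5 (log2 fold change -1.28 ± 0.20, edgeR adjusted p = 0.00132), and 86.0 ± 11.5 CPM at P10 and 34.8 ± 7.1 CPM at P7 (1.30 ± 0.20, 0.0132, SD, n = 3 each). The later change was 1.38 without P10 replicate 1 (0.0116), and its call was lost without P7 replicate 1 or 3 or P10 replicate 2 or 3 (0.0588 to 0.0741). Of the 8 other Klf genes listed, 4 were tested and Klf9 was the 1 called in either of these comparisons. Of all genes, 25.1% were called at P3 against E17.5 and 3.64% at P10 against P7. Klf1 and Klf14 had 0 to 2 counts a library and were not tested.

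Glucocorticoid-responsive genes, the group in which Klf15 and Klf9 are also known, were mostly called lower across birth. Of 14 tested, 11 were lower, 0 higher and 3 not called at P3 against E17.5, beside 12% of all genes called lower, with a median log2 fold change of -1.56 against -0.05 for all genes. Hif3a averaged 1.20 CPM at P3 and 53.9 CPM at E17.5 (log2 fold change -5.50 ± 0.33), Zbtb16 1.85 and 58.4 CPM (-4.99 ± 0.38), Mt1 8.48 and 54.7 CPM (-2.69 ± 0.47), and Fkbp5, the receptor's cochaperone, 14.9 and 87.0 CPM (-2.55 ± 0.20). At P10 against P7, 2 of the 14 were higher and 3 lower, beside 3.64% of all genes called in either direction and 1.40% higher. The median log2 fold change of the list was 0.85, against 0.01 for all genes. Cebpd (1.52 ± 0.29, edgeR adjusted p = 0.0264) and Mt1 (2.33 ± 0.47, 0.0318) were higher at P10, and Hif3a (-2.55 ± 0.47, 0.0228) and Fkbp5 (-1.20 ± 0.20, 0.0172) were lower. Hif3a averaged only 0.134 CPM at P10 and 0.817 CPM at P7, so its change rests on levels near 0. Fkbp5 averaged 3.46 CPM at P10 and 7.97 CPM at P7. Without P10 replicate 1 the changes were 1.53 for Cebpd, 2.53 for Mt1, -2.50 for Hif3a and -1.39 for Fkbp5, all still called (0.0123 to 0.0414). These 4 calls were each lost without P10 replicate 2 or 3 and without P7 replicate 2 or 3, with edgeR adjusted p up to 0.131. The list summed to 747 CPM in P10 replicate 1 and to 875 and 887 CPM in P10 replicates 2 and 3, above the 410 to 457 CPM of the P7 libraries, and Klf15 too was lowest of its stage in replicate 1. A large part of that sum is Cebpd, which averaged 360 CPM at P10 and 126 CPM at P7. What part glucocorticoid signalling has in the Klf15 values was not tested.

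**Figure D4:**
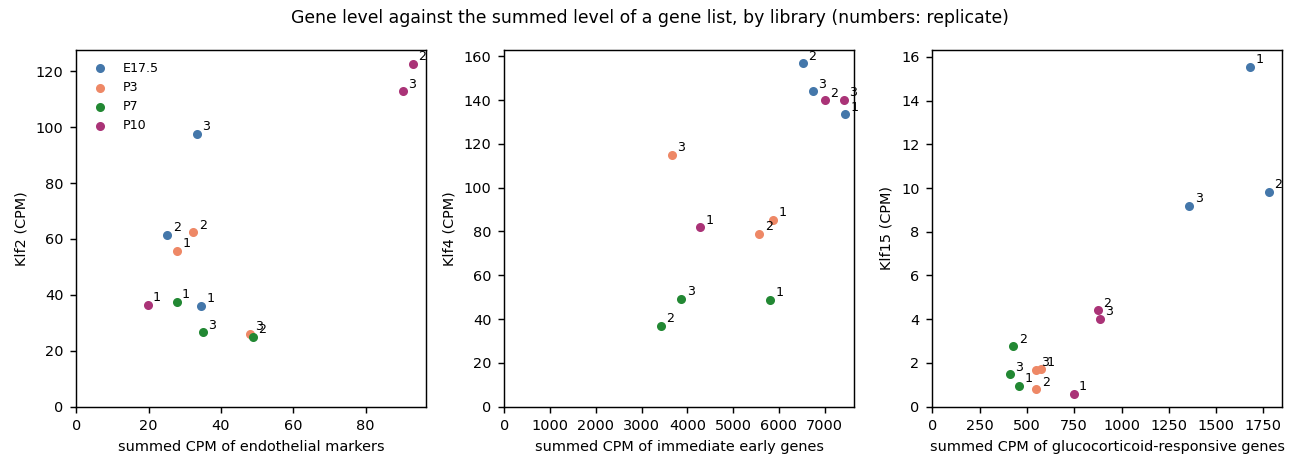
Level of Klf2, Klf4 and Klf15 in CPM (vertical axes) against the summed CPM of endothelial markers, immediate early genes and glucocorticoid-responsive genes (horizontal axes), 1 point a library with its replicate number, coloured by stage. P10 replicates 2 and 3 lay above P10 replicate 1 on both axes of all 3 panels, and the points are shown as a description with no fit.

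Enzymes of branched-chain amino acid and proline catabolism, which Klf15 is known to control in muscle and liver, were lower at P3 than at E17.5 for 5 of 12 and higher for 1, beside 25.1% of all genes called. Among them were Ivd (9.25 CPM at P3 and 30.0 CPM at E17.5, log2 fold change -1.70 ± 0.24), Bckdha (-0.99 ± 0.16) and Bcat2 (-0.70 ± 0.15), all 3 kept without each library. At P10 against P7 edgeR called 0 of the 12, beside 3.64% of all genes, with 2 at an unadjusted p under 0.05, and DESeq2 called 1 and limma-voom 0.

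Immediate early and dissociation genes, with which Klf4 and Klf6 are often induced in handled cells, were lower at P3 than at E17.5 for 6 of 23 and higher for 0. That is a share close to the 25.1% of all genes called in either direction, while 12% of all genes were called lower. The same list had 2 of 23 higher at P10 than at P7, beside 1.40% of all genes called higher. They were Fosb (1.39 ± 0.28, edgeR adjusted p = 0.0273) and Fosl2 (1.01 ± 0.17, 0.0179), each lost without 5 of the 12 libraries (0.0542 to 0.121), P10 replicates 2 and 3 and P7 replicates 2 and 3 among them. Without P10 replicate 1 they were 1.60 (0.0106) and 0.997 (0.0270). Its sum was 7441, 6527 and 6746 CPM at E17.5, 5878, 5574 and 3665 CPM at P3, 5803, 3419 and 3870 CPM at P7 and 4277, 7002 and 7422 CPM at P10. The 5 highest sums were those of the 3 E17.5 libraries and P10 replicates 2 and 3, which also had the 5 highest Klf4 levels. At P3 and P7 the sum and Klf4 parted: P3 replicate 3 had the lowest sum of its stage and the highest Klf4, and P7 replicate 1 had a sum near those of 2 P3 libraries at 48.8 CPM of Klf4. The part of cell handling in the Klf4 values was not tested.

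In the kinase arm that feeds Klf2 and Klf4, 2 of 7 genes fell at P3 against E17.5, Mef2d (57.4 CPM at P3 and 91.5 CPM at E17.5, log2 fold change -0.67 ± 0.15, edgeR adjusted p = 0.00853) and Mef2c (24.6 and 48.9 CPM, -0.99 ± 0.27, 0.0210). These 2 of 7 are a share close to the 25.1% of all genes called in either direction. Of all genes, 12% were called lower. The Mef2c call was lost without E17.5 replicate 3 or P3 replicate 2 or 3 (0.0539 to 0.0789). Mef2a was the 1 gene of the arm called at P10 against P7, beside 3.64% of all genes. It averaged 158 CPM at P10 and 103 CPM at P7 (0.62 ± 0.10, 0.0170, and 0.60 with 0.0241 without P10 replicate 1), a call lost without any of the P7 libraries or P10 replicate 2 or 3 (0.0509 to 0.0777). For the TGF-beta early response genes, the class of Klf10 and Klf11, 4 of 10 were lower and 1 higher at P3 than at E17.5, beside 25.1% of all genes called. Ctgf rose to 272 CPM at P3, against 67.2 CPM at E17.5 (2.02 ± 0.44, 0.00862), while Bhlhe40 (-1.53 ± 0.25, 0.00159), Pmepa1 (-0.87 ± 0.15, 0.00215) and Skil (-0.59 ± 0.18, 0.0388) were lower. At P10 against P7, Bhlhe40 (1.04 ± 0.25) and Pmepa1 (0.71 ± 0.15) were higher, calls lost without 10 and 8 of the 12 libraries (0.0512 to 0.167). Without P10 replicate 1 they were 1.24 (0.0154) and 0.60 (0.0768). The Skil call was lost without 8 libraries (0.0510 to 0.175).

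Of 9 tested genes reported as targets of Klf2, Klf4 and Klf6, 4 were higher, 1 lower and 4 not called at P3 against E17.5, beside 25.1% of all genes called in either direction, with S1pr1 at 11.5 CPM at P3 and 4.31 CPM at E17.5 (log2 fold change 1.41 ± 0.25, edgeR adjusted p = 0.00275), Eng at 135 and 61.7 CPM (1.13 ± 0.19, 0.00204) and Col1a1 at 712 and 478 CPM (0.58 ± 0.13, 0.00889). At P10 against P7 edgeR called 0 of the 9, beside 3.64% of all genes, with 2 at an unadjusted p under 0.05, and DESeq2 and limma-voom called 1 each. Contractile genes, which Klf4 represses in smooth muscle cells, were higher at P3 than at E17.5 for 5 of 14 and lower for 1, beside the same share of all genes, led by Actg2 (2.08 ± 0.42), Des (1.32 ± 0.22), Tagln (1.28 ± 0.26) and Acta2 (1.06 ± 0.28). The Acta2 call was lost without E17.5 replicate 1 or 2 or P3 replicate 3 (0.0506 to 0.0756). At P10 against P7 edgeR called 0 of the 14, beside 3.64% of all genes, with 5 at an unadjusted p under 0.05, and DESeq2 and limma-voom called 0. Of the 48 called differences of the listed genes followed by name at P3 against E17.5, 35 stayed called without each of the 12 libraries, while of 16 at P10 against P7 none did, though all 16 kept their sign.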

How the data were processed

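Bulk RNA was sequenced from sorted Acta2-dsRed+, Pdgfra-GFP+ mouse lung cells at 4 stages, with 3 libraries each. The authors deposited 1 table of scaled estimated counts per gene, already rounded to whole numbers; the build was GRCm38 per the submitters' processing notes, and the aligner, quantifier, scaling and annotation behind the table were not given in the sources used here. Per the labels' protocols a stranded total RNA kit was used, although the molecule is labelled as polyA RNA. Library totals are of these estimated counts, and their depth limits the genes under about 10 CPM most. The table was read as counts in edgeR 4.0.16 (R 4.3.3): filterByExpr by stage, TMM scaling, 1 robust quasi-likelihood model of 12 libraries with a mean per stage, and Benjamini-Hochberg adjustment over 16827 genes at 0.05. SEs are the log2 fold change divided by the root of F. Alternatives used DESeq2 1.42.0, limma-voom (limma 3.58.1), other scalings and filters, a replicate block and leaving out each library. The procedure was tested on simulated counts. Gene positions and transcript lengths come from the GENCODE annotation of GRCm38, and promoters from RefSeq (GRCm38.p6). The members and gene lists were chosen with earlier results of these data known. Named genes are the 10 members, the 3 nearest genes to each member that passed the test across stages, and Acta2 and Pdgfra. Up to 4 called genes per list and comparison were named as well. Their mean over all 12 libraries was at least 5 CPM, so a stage mean can be lower. Klf1, Klf5, Klf8, Klf14 and Klf16 are named outside that rule. Member fold changes are printed where the unadjusted p was under 0.05.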

Additional observations from a re-analysis of the deposited data

How the results depend on the processing

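All 17 called differences of the 10 genes kept their sign in every alternative run, and 13 of them stayed called without each of the 12 libraries. Another 38 differences, with an unadjusted p of 0.05 or more, were rerun in 833 alternative fits, of which 39 gave the other sign and 0 of these passed the threshold. The number of all genes called depended on the processing, and the cause was not tested. P3 against E17.5 gave 4225 genes, and 2767 in the fit of its 6 libraries alone. P7 against P3 gave 1 gene, but 730 in DESeq2, 18 in limma-voom, 9 with 6 libraries, 4 with upper-quartile scaling, 3 without a filter, 3 with a filter of 1 CPM in 3 libraries and 0 with the replicate block. Leaving out 1 library gave 0 to 73, the highest without E17.5 replicate 1. P10 against P7 gave 613 genes, 1845 in DESeq2, 307 without a filter and 310 with the replicate block, and 22 to 790 with 1 library left out: 22 and 25 without P10 replicates 2 and 3, 39 to 55 without a P7 library, and 260 and 291 without P3 replicates 2 and 1. P10 against E17.5 gave 3077 genes, 1687 with 6 libraries and 2016 to 3113 with 1 library left out (lowest without P10 replicate 3). P7 against E17.5 gave 4271 and 2719 to 4448 (lowest without P7 replicate 3), and P10 against P3 gave 2912 and 1307 to 3053 (lowest without P10 replicate 3). Of the 10 genes, DESeq2 called 2 at P7 against P3, 4 at P10 against E17.5 and 2 at P10 against P3, in place of 0, 2 and 1. At P10 against P7, 1 in place of 2 was called without a filter, with 6 libraries and with the replicate block, and 0 to 3 with 1 library left out. P10 against E17.5 gave 1 and P10 against P3 gave 2 with 6 libraries, and P10 against P3 also gave 0 to 2 with 1 library left out.

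The labels do not say whether equal replicate numbers pair libraries. The correlation of deviations from the stage means ran from -0.195 to 0.136 over 18 pairs of equal number, with 3 above 0.1. Over 36 other pairs it ran from -0.203 to 0.220, and 5 of 12 libraries correlated best with their own number. With stage means of only 3 libraries, these correlations cannot decide whether libraries were paired. With the replicate block, Klf13 at P10 against P7 had an adjusted p of 0.0556 and Klf3 across stages 0.0784. Precision was limited by 3 libraries a stage. Of the 2 genes with low counts, Klf15 had a large SE (0.66 at P3 against E17.5) and Klf12 a small one (0.13).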

Other observations

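Of the other family genes that were tested but did not pass at P3 against E17.5 or at P10 against P7, Klf16 averaged 13.7, 15.4, 10.3 and 15.5 CPM and Klf5 7.42, 10.7, 3.04 and 9.22 CPM at E17.5, P3, P7 and P10. Klf8, the third CtBP-binding repressor beside Klf3 and Klf12, stayed at or under 0.992 CPM on average at every stage. The Sp genes, whose products bind the same GC boxes, had 1 of 6 higher and 1 lower at P3 than at E17.5, beside 25.1% of all genes called. The lower one was Sp1, at 33.2 CPM at P3 and 47.9 CPM at E17.5 (log2 fold change -0.53 ± 0.09, edgeR adjusted p = 0.00184), and it stayed called without each library. Among 11 cofactor genes 2 were higher and 2 lower at P3 than at E17.5, beside the same 25.1%. Ctbp1, the corepressor that Klf3 and Klf12 bind, was higher at 108 CPM at P3 and 81.8 CPM at E17.5 (0.41 ± 0.11, 0.0198), a call lost without E17.5 replicate 1 or 2 or P3 replicate 1 or 3 (0.0587 to 0.0675), and the acetyltransferase gene Crebbp was lower (-0.35 ± 0.08, 0.00856) without such a loss. Of 10 genes for ubiquitin ligases reported to act on Kruppel-like proteins, 2 were called at P3 against E17.5. The share of all genes was the same 25.1% in either direction, and 12% lower at P3. Fbxo32 (-1.54 ± 0.23, 0.00102) and Itch (-0.44 ± 0.09, 0.00485) were lower at P3 than at E17.5, and these calls held without each library.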
